A study of Arabidopsis thaliana with 27 samples.

Results

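Gynoecia of the Arabidopsis thaliana arf6 arf8 double mutant (here arf6arf8) were compared with wild-type gynoecia by RNA sequencing. The comparison holds 6 of the 27 libraries of the series, chosen by the source label of each sample: 2 libraries of arf6arf8 gynoecia and 4 of Columbia gynoecia. Both groups are of the Columbia background, and the wild type carries no transgene or mutation by its label. The labels call the mutant arf6arf8 without naming its alleles, so which part of each gene is altered is not stated in the sources used here. The gynoecia were 0.9 to 1.4 mm long, came from stage 12 flowers and were collected 1 to 3 hours after dawn. Libraries of 3 further kinds of gynoecia (mARF8 with an added genomic ARF8 whose miR167 site is mutated, axr3 with a stabilised IAA17 under the STK promoter, and arf6axr3 with that transgene in an arf6 mutant, 4 each) entered the same fit of 18 libraries and served for the estimate of spread. The mARF8 gynoecia are of line 3B by their source labels, although the title of replicate 4 names no line. The axr3 and arf6axr3 groups mix transgenic lines 15-5 and 25-2 where the titles name one, and axr3 replicate 4 came from a cross of line 25-2 with Columbia. Stamens of stage 11 buds, 2 libraries of arf6arf8 and 3 of wild type, were used for a comparison between tissues. Nothing in the labels ties a replicate to its own plants, and p-values therefore reflect only how far these libraries spread, be that technical or not.

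ARF6 and ARF8 are auxin response factors of the activator class, transcription factors that bind auxin response elements and are held inactive by Aux/IAA proteins until auxin causes these to be degraded. The microRNA miR167 pairs with their transcripts and leads to their cleavage. In flowers the pair of factors is known to act redundantly in late maturation: double mutant flowers do not open, stamen filaments stay short, the stigma and style are underdeveloped and jasmonate production falls. A whole gynoecium holds carpel walls (valves and their margins), style, stigma, transmitting tract and ovules, and in such bulk samples fewer cells of a type and less RNA per cell cannot be told apart.

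Total counts were 14586768 and 15005992 in the arf6arf8 libraries, against 6177301 to 11821613 in wild type. Of 18616 genes tested with edgeR's quasi-likelihood F test, 2077 (11.2%) were called at a Benjamini-Hochberg adjusted p under 0.05, and all adjusted p-values below come from this test unless stated. Of these, 1151 (6.18%) were higher and 926 (4.97%) lower in arf6arf8, and 758 of the calls exceeded 2-fold. The 2 groups' libraries did not overlap for 38.1% of the genes tested. Without arf6arf8 replicate 1 there were 792 calls and without replicate 2 there were 753, so single-gene calls that depend on both replicates are named as such. Summed over 8 carpel and ovule markers, levels were 485 and 538 CPM (read counts scaled by TMM to a common library size) in arf6arf8, against 496 to 527 CPM in wild type. Of these 8, 1 was called higher (CRC) and 2 lower (SHP1 and HEC1), so the sum hides changes in opposite directions. The 8 markers of late pollen summed to 124 and 234 CPM in arf6arf8 replicates 1 and 2, against 15.1 to 66.8 CPM in wild type. Most of this sum came from the pollen coat gene GRP17, and none of the 6 markers tested was called. The petal and stamen genes AP3 and PI summed to 29.4 and 30.3 CPM in arf6arf8, against 8.45 to 14.4 CPM in wild type. Stamen libraries, scaled in a separate fit of all 27, had 30539 to 34209 CPM of the pollen markers. The tapetum markers summed to 18 and 19.6 CPM in arf6arf8 and 20.1 to 28.7 CPM in wild type, with the tapetum regulators MS1 and MYB80 at 0 counts in the 6 libraries.

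The altered genes and the microRNA that pairs with them were read first. The sequences below show the miR167a mature strand with its seed (bases 2 to 8) in capitals, and its sites in the ARF6 and ARF8 transcripts with capitals at bases that differ from a perfect complement. They are from RefSeq, build TAIR10.1.
miR167a: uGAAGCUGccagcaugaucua
ARF6 site: GagaucaGgcuggcagcuuGU
ARF8 site: uagaucaGgcuggcagcuuGU
The mature strand lies at chr3:8108090-8108110 on the plus strand. MIR167b gives the same 21 bases, so the loci can be told apart only by their primary transcripts. The ARF6 site differs at 4 bases and lies in coding sequence of exon 13 of 14, at chr1:10686478-10686498 on the minus strand. The ARF8 site differs at 3 bases and lies in coding sequence of exon 12 of 13, at chr5:14633841-14633861 on the plus strand.

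The 2 mutant libraries held 131 and 140 CPM of ARF6 (AT1G30330), against 437, 450, 558 and 561 CPM in wild type. It fell 3.71-fold (log2 fold change -1.89 ± 0.12 SE, adjusted p = 5.21e-08). They held 87.4 and 91.9 CPM of ARF8 (AT5G37020), against 371 to 406 CPM in wild type, and ARF8 fell 4.24-fold (-2.08 ± 0.13, adjusted p = 3.23e-08). Reads of both genes were thus still present in the mutant libraries, each well under the wild-type range. MIR167a (AT3G22886), a primary transcript of miR167, had 16.4 and 16.1 CPM in arf6arf8, against 0.159 to 0.547 CPM in wild type. It rose 48.8-fold (5.61 ± 0.41, adjusted p = 2.14e-07). MIR167b reached 0.941 CPM at most in these libraries and was not tested, and MIR167c and MIR167d had 0 counts in the 6 libraries.

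**Figure D1:**
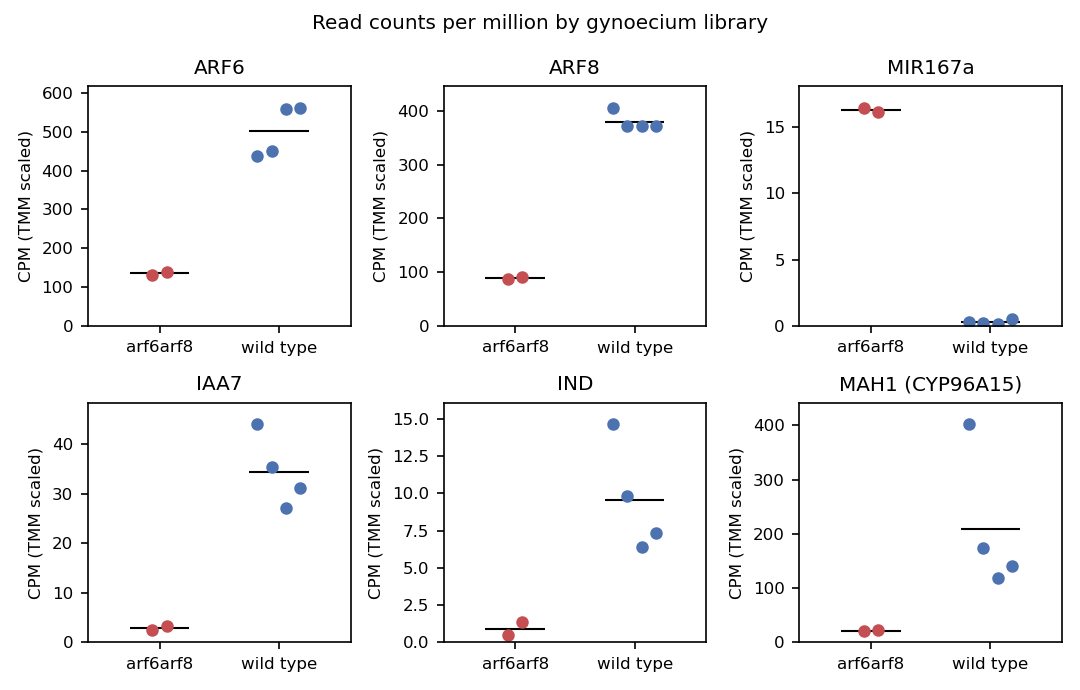
CPM (TMM scaled, linear axes from 0) of 6 genes in the 2 arf6arf8 and 4 wild-type gynoecium libraries. Points are libraries and lines are group means. ARF6, ARF8, IAA7, IND and MAH1 lie lower in both arf6arf8 libraries than in any wild-type library, and MIR167a lies higher.

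The 15 genes with the lowest fold changes were taken from the calls whose groups did not overlap and whose mean log2 CPM over the fit reached 1. Of these, 14 had under 0.5 CPM in both arf6arf8 libraries, and AT3G12000 reached 1.55 CPM in replicate 2. GRI (AT1G53130), a small protein of the STIG1 family of stigma proteins known for its part in cell death signalling, had 0 counts in both arf6arf8 libraries, against 13.1, 7.79, 13.1 and 10.2 CPM in wild type. Against 3 counts over the mutant group, it was at least 104-fold lower. The cellulase-family gene AT3G26140 had 0.280 and 0.471 CPM in arf6arf8, against 157, 106, 142 and 139 CPM in wild type, with a log2 fold change of -8.44 ± 0.35 (adjusted p = 1.3e-10). BETAG4 (AT5G20330), a beta-1,3-glucanase, had 0.210 and 0.336 CPM in arf6arf8, against 26.5 to 48.3 CPM in wild type (-7.06 ± 0.60, adjusted p = 7.19e-07).

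The O-methyltransferase gene AT4G35160 had 1 count in all in arf6arf8, against 12.7 to 29.1 CPM in wild type, a ratio of wild type to mutant of 534 with a 95% counting interval of 95.6 to 21132. AT4G33600, a gene of unknown function, likewise had 1 count, against 10.0 to 13.5 CPM, a ratio of 333 (59.4 to 13177). TT12 (AT3G59030), the vacuolar transporter that loads proanthocyanidin precursors in the seed coat, had 0 and 0.134 CPM in arf6arf8, against 5.39 to 8.77 CPM in wild type, a ratio of 98.4 (27.0 to 817). These 3 genes were at the floor of detection in the mutant, so their folds are known only within wide bounds.

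KCS16, a fatty acid elongase subunit, had 0.489 and 0.134 CPM in arf6arf8, against 7.37 to 10.4 CPM in wild type (-4.77 ± 0.43, adjusted p = 1.41e-06). Genes of the S-locus families, which in other Brassicaceae act in the stigma, were also there: the receptor kinase remnant PSEUDOSRKA had 0.140 and 0.336 CPM in arf6arf8, against 8.86 to 15.1 CPM in wild type. AT3G12000, related to the Brassica stigma protein SLR1, had 0.419 and 1.55 CPM in arf6arf8, against 18.8 to 36.8 CPM in wild type (adjusted p = 0.0297). The other 6 were GA2OX1 (described with the gibberellin genes), the PCC1-like gene AT3G22240, the GH3-family gene AT5G13370, the terpene-cyclase-family gene AT3G14520, the RING-finger gene AT2G47560 and the pectin-lyase-family gene AT4G13210, with log2 fold changes of -4.19 to -4.63. Of the 50-base windows in their exons, 37.8% for AT3G22240, 22.1% for PSEUDOSRKA and 8.65% for AT3G14520 also occur elsewhere in the genome, so reads there could have been split or dropped. The calls of AT3G12000, AT3G22240 and GA2OX1 were lost without either arf6arf8 replicate, that of AT3G12000 also without wild-type replicate 4, and that of AT3G14520 without arf6arf8 replicate 1.

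The 15 genes with the highest fold changes held a glutathione transferase, stress regulators, peroxidases and MIR167a. GSTF6 (AT1G02930), a glutathione S-transferase, had 71.0 and 49.6 CPM in arf6arf8, against 0 to 0.199 CPM in wild type (8.96 ± 0.83, adjusted p = 2.11e-06). Of the 50-base windows in its exons, 10.3% also occur elsewhere in the genome, as do 7.55% for the subtilase gene AT4G21630, described below. The peroxidase gene AT5G58400 had 81.2 and 56.7 CPM in arf6arf8, against 5.28 to 7.22 CPM in wild type (3.48 ± 0.46, adjusted p = 9.38e-05). The stress transcription factor genes WRKY40 and RRTF1 and the calmodulin-like gene CML38 rose as well. WRKY40 had 12.5 and 26.4 CPM in arf6arf8, against 0.638 to 2.99 CPM in wild type (3.59 ± 0.84, adjusted p = 0.0089). RRTF1 had 10.3 and 30.0 CPM in arf6arf8, against 0 to 4.08 CPM in wild type (3.66 ± 1.12, adjusted p = 0.0427). The call of WRKY40 was lost without arf6arf8 replicate 2, and that of RRTF1 without any 1 of wild-type replicates 2, 3 and 4 or of the arf6arf8 replicates (adjusted p up to 0.341).

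FTM1, an acyl carrier protein desaturase, had 16.8 and 11.4 CPM in arf6arf8, against 0.497 to 1.31 CPM in wild type (3.88 ± 0.58, adjusted p = 0.000252). PYD4, of pyrimidine breakdown, had 14.5 and 11.6 CPM in arf6arf8, against 0.497 to 1.69 CPM in wild type (3.51 ± 0.57, adjusted p = 0.000544). The fatty acid desaturase gene AT1G06100, the cyclophilin gene AT3G55920, the pseudogene AT4G08093 and the defensin-like gene AT3G05730 also rose, and the call of AT3G05730 was lost without wild-type replicate 1, 2 or 3 or either arf6arf8 replicate. AT4G08093 had 3 counts in all in wild type, so its ratio of 141 has a 95% counting interval of 47.7 to 685. In contrast, 3 genes were far higher in arf6arf8 replicate 2 than in replicate 1: the subtilase gene AT4G21630 had 6.01 and 31.2 CPM in replicates 1 and 2, against 0.159 to 0.996 CPM in wild type. The pectin methylesterase-family gene AT5G49180 had 6.36 and 37.2 CPM in arf6arf8, against 0.319 to 2.30 CPM in wild type, and the peroxidase gene AT3G17070 had 2.94 and 15.2 CPM, against 0.319 to 0.828 CPM. Without arf6arf8 replicate 2 all 3 calls were lost (adjusted p of 0.183, 0.199 and 0.0746). The summed pollen markers, mostly GRP17, also stood higher in replicate 2 (234 CPM) than in replicate 1 (124 CPM). In wild type the sum was up to 66.8 CPM, and no pollen marker was called in the main model. The part of the pollen markers in these results was not tested.

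**Figure D2:**
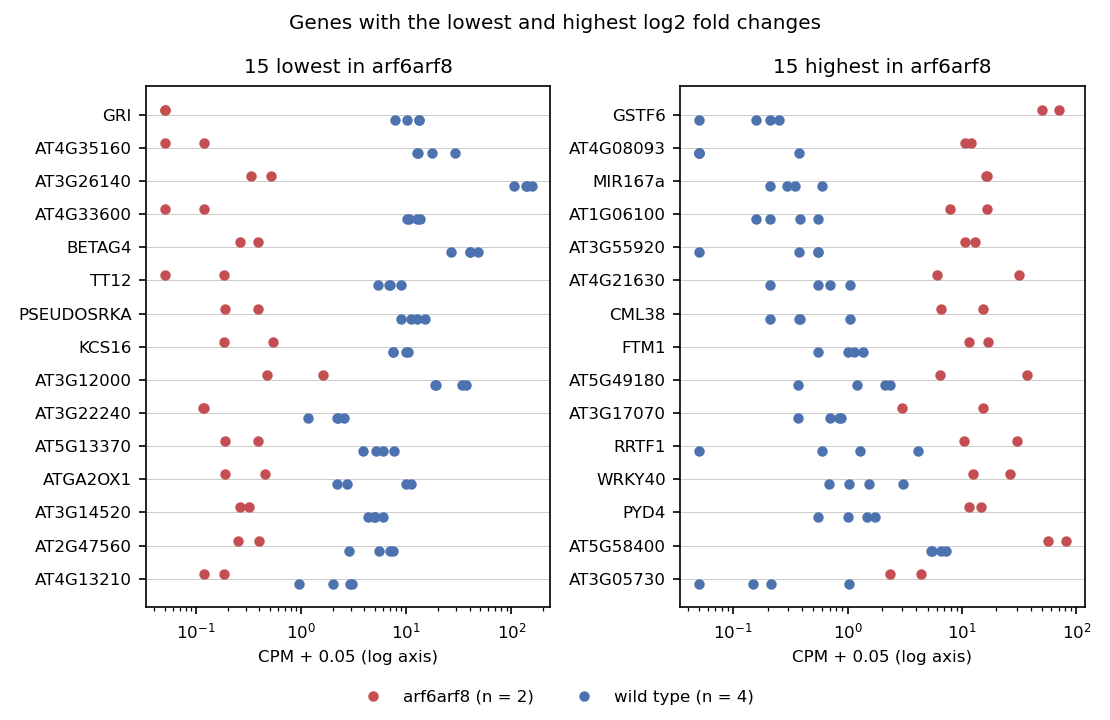
CPM plus 0.05 (log axes) of the 15 lowest (left) and 15 highest (right) called genes in each library, arf6arf8 above wild type within each row. No gene shown has overlapping groups, which the choice of genes fixed. AT4G21630, AT5G49180 and AT3G17070 show the wide gap between the 2 arf6arf8 libraries.

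The remaining accounts follow 35 lists of genes by function. The lists do not hold every member of a family, and numbers tested count list members only. Against the 6.18% of tested genes that rose and the 4.97% that fell, counts on a list are descriptions, not tests of the list. Of the 5 activator-class auxin response factor genes, ARF6 and ARF8 fell and the other 3 were not called. ARF5 (MP), which acts in embryo and carpel patterning, had 243 and 233 CPM in arf6arf8, against 274 to 312 CPM in wild type (adjusted p = 0.0881). With only the groups compared, ARF5 was called lower (-0.29, adjusted p = 0.0361). ARF7 (NPH4) had 70.5 and 78.3 CPM, against 78.1 to 84.8 CPM. Of 10 repressor-class members, 2 fell: ARF16 had 14.3 and 14.9 CPM in arf6arf8, against 27.1 to 32.0 CPM in wild type (-0.98 ± 0.12, adjusted p = 4.09e-05), and ARF9 had 43.7 and 43.0 CPM, against 53.2 to 71.1 CPM (-0.52 ± 0.10, adjusted p = 0.00271).

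Early auxin response genes moved in both directions. Of 22 Aux/IAA genes tested, which encode the repressors that bind ARF proteins, 6 fell and 1 rose, and the list's median log2 fold change was -0.08, against -0.01 over all genes tested. IAA7 had 2.45 and 3.23 CPM in arf6arf8, against 44.0, 35.5, 27.1 and 31.2 CPM in wild type, and fell 12.1-fold (-3.6 ± 0.30, adjusted p = 7.19e-07). IAA1 had 4.33 and 6.19 CPM in arf6arf8, against 20.7 to 28.0 CPM in wild type (-2.25 ± 0.29, adjusted p = 7.61e-05). IAA26 (AT3G16500) had 21.7 and 24.6 CPM in arf6arf8, against 55 to 66.9 CPM in wild type (-1.37 ± 0.14, adjusted p = 7.53e-06). IAA4 (AT5G43700) was the member that rose, with 87.8 and 111 CPM in arf6arf8, against 49.8 to 58.1 CPM in wild type (0.90 ± 0.15, adjusted p = 0.000876). IAA16, IAA28 and IAA8 fell by 0.67, 0.92 and 0.29 on the log2 scale. Without arf6arf8 replicate 1 the 6 lower calls were 3, since those of IAA16, IAA28 and IAA8 were lost, and that of IAA8 was also lost without arf6arf8 replicate 2 or wild-type replicate 1, 2 or 3, and that of IAA28 without wild-type replicate 1 or 2. IAA17 itself had 10.2 and 10.6 CPM in arf6arf8, against 8.09 to 14.3 CPM in wild type, and was not called.

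Of 7 SAUR genes tested, a family of small auxin-induced proteins of which many promote cell expansion, 5 fell and none rose, with a list median of -2.06 on the log2 scale. The other 14 of the 21 on the list did not pass the filter on low counts and reached 1.12 CPM at most in the 6 libraries. The fallen members were SAUR21 and the SAUR63 clade of chromosome 1, all at low levels in wild type. SAUR21 (AT5G18030) had 2 counts in arf6arf8, against 1.12 to 2.15 CPM in wild type, a ratio of 23.3 with a 95% counting interval of 6.18 to 197. SAUR68 had 0.559 and 1.08 CPM in arf6arf8, against 3.06 to 4.81 CPM in wild type (-2.25 ± 0.36, adjusted p = 0.000444). SAUR66 (AT1G29500), SAUR62 (AT1G29430) and SAUR63 fell by 1.19, 2.39 and 2.06 on the log2 scale. The groups overlapped for SAUR62, and 5 calls became 3 without wild-type replicate 1, 2 or 4 or arf6arf8 replicate 2, and 2 without arf6arf8 replicate 1. SAUR63 did not pass the filter without wild-type replicate 1, 2 or 4, nor SAUR62 without replicate 1. Genes this low can pass through the group where they are higher, so the list's count by direction is not independent of the filter. These genes are close copies of each other: 33.9%, 23.2% and 27.1% of the 50-base exon windows of SAUR68, SAUR62 and SAUR63 recur elsewhere in the genome.

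Of 9 GH3 genes tested, which encode enzymes that conjugate auxin or jasmonate to amino acids, 3 rose and 1 fell. GH3.9 had 19.6 and 14.3 CPM in arf6arf8, against 5.96 to 8.07 CPM in wild type (1.2 ± 0.26, adjusted p = 0.00499). GH3.3 had 99.0 and 73.8 CPM in arf6arf8, against 50.0 to 72.2 CPM in wild type (0.56 ± 0.16, adjusted p = 0.0337). GH3.6 (DFL1) fell, with 15.0 and 15.9 CPM in arf6arf8, against 24.4 to 43.4 CPM in wild type (-1.16 ± 0.35, adjusted p = 0.0367), and GH3.1 stood at 1.61 and 1.82 CPM, against 0.249 to 0.797 CPM. The 3 higher calls were 1 without wild-type replicate 2 or 4 and 0 without arf6arf8 replicate 1, that of GH3.3 was also lost without wild-type replicate 1 and that of GH3.1 without wild-type replicate 3 or arf6arf8 replicate 2, and the call of GH3.6 was lost without wild-type replicate 1, 3 or 4 or either arf6arf8 replicate.

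Of 19 auxin synthesis and transport genes tested, 7 were called higher, 1 lower and 11 were not called. YUC8, a flavin monooxygenase of the last step of auxin synthesis, had 6.15 and 8.67 CPM in arf6arf8, against 2.19, 0.828, 0.797 and 0.766 CPM in wild type (2.65 ± 0.33, adjusted p = 4.42e-05). TAA1, the aminotransferase of the preceding step, was the member that fell, with 67.2 and 56.1 CPM in arf6arf8, against 143 to 147 CPM in wild type (-1.24 ± 0.17, adjusted p = 9.57e-05). The 2 enzymes of 1 pathway thus moved in opposite directions. The efflux carrier gene PIN7 had 187 and 190 CPM in arf6arf8, against 139 to 151 CPM in wild type (0.39 ± 0.07, adjusted p = 0.00149). YUC6, PIN3 and the influx carrier genes AUX1, LAX1 and LAX3 rose by 0.48 to 0.72 on the log2 scale. Without arf6arf8 replicate 2 the 7 higher calls were 4, with those of YUC6, PIN3 and AUX1 lost, and without replicate 1 those of LAX1 and LAX3 were lost. The call of PIN3 was also lost without wild-type replicate 4 and that of LAX3 without wild-type replicate 2 or 3.

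The valve margin list gave 4 lower calls and 1 higher among 7 tested. It holds genes of the strips where the fruit later opens, and also FUL, a valve gene that restricts them and was 1 of the 4 that fell. IND (AT4G00120), a transcription factor of margin identity, had 0.489 and 1.34 CPM in arf6arf8, against 14.6, 9.86, 6.38 and 7.33 CPM in wild type, and fell 10.3-fold (-3.37 ± 0.49, adjusted p = 0.000187). ALC, which directs the separation layer, had 58.5 and 71.1 CPM in arf6arf8, against 164 to 195 CPM in wild type (-1.45 ± 0.14, adjusted p = 2.11e-06). SHP1, a MADS factor upstream of both, had 78.8 and 99.7 CPM in arf6arf8, against 141 to 155 CPM in wild type (-0.73 ± 0.09, adjusted p = 6.57e-05). Its redundant partner SHP2 had 56.3 and 60.8 CPM in arf6arf8 and 55.3 to 62.4 CPM in wild type, with no call. FUL (AGL8), the valve identity factor that restricts the margin genes, had 113 and 118 CPM in arf6arf8, against 145 to 178 CPM in wild type (-0.53 ± 0.10, adjusted p = 0.00252, lost without arf6arf8 replicate 1 at adjusted p = 0.0511). The polygalacturonase gene ADPG1 rose, with 1.96 and 3.5 CPM in arf6arf8, against 0.166 to 0.896 CPM in wild type (2.24 ± 0.47, adjusted p = 0.00456), and its call was lost without arf6arf8 replicate 2. ALC, SHP1 and SHP2 overlap a locus on the opposite strand, as do GRI, TT12, PSEUDOSRKA, AT2G47560, AT4G13210, AT3G55920, RRTF1 and WRKY40. So do CRC, CKX5, ROT3, SWEET1, STK, MYC2, ARF5 (MP) and ARF7 (NPH4). Without the strand setting of the counting the reads of such partners cannot be told apart.

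The 250 bases before the annotated starts of IND and IAA1 are shown because both genes fell and both windows hold letters of the auxin response element. The motifs searched on both strands were TGTCTC and TGTCGG, which in these windows appear as their reverse complements, in capitals. The sequences are from RefSeq TAIR10.1, 5′ to 3′ toward the gene, at chr4:43198-43447 on the minus strand for IND and chr4:8360746-8360995 on the plus strand for IAA1.
IND: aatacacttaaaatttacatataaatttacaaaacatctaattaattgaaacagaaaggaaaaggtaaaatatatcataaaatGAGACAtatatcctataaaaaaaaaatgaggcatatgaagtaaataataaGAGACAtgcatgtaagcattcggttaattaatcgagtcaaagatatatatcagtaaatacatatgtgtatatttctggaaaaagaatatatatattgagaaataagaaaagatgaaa
IAA1: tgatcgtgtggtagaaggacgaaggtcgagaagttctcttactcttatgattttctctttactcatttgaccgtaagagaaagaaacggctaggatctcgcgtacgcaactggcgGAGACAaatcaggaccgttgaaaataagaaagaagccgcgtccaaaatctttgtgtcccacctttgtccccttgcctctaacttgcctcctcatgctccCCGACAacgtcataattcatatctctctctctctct
Of 18567 windows of tested genes, 10.6% held TGTCTC, 4.64% held TGTCGG and 14.8% held either. Of the 15 lowest and of the 15 highest genes, 1 window each held either motif. These matches are a description of letters, and binding was not measured.

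Among 15 regulators of style and stigma tested, 3 fell and 1 rose. CRC, a YABBY factor of carpel and nectary growth, rose, with 42.3 and 24.3 CPM in arf6arf8, against 1.39, 3.81, 11.2 and 8.97 CPM in wild type (2.47 ± 0.49, adjusted p = 0.00272). The bHLH factor HEC1, needed for the transmitting tract and stigma, had 10.6 and 9.08 CPM in arf6arf8, against 12.8 to 17.7 CPM in wild type (-0.64 ± 0.13, adjusted p = 0.00291). STY2 and LRP1, of the SHI family that promotes style growth, fell by 0.59 and 0.94 on the log2 scale. Most members were not called, among them the 4 NGATHA genes, SPT, HEC2 and HEC3. The 3 lower calls were 1 without arf6arf8 replicate 1 and 0 without replicate 2, and that of CRC was lost without arf6arf8 replicate 1.

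Of 4 transmitting tract regulators, BEE1, a bHLH factor of the tract, had 9.85 and 9.01 CPM in arf6arf8, against 19.0 to 28.6 CPM in wild type (-1.40 ± 0.23, adjusted p = 0.000706). NTT, a zinc finger factor of the tract, had 42.2 and 41.0 CPM in arf6arf8, against 50.0 to 61.8 CPM in wild type (-0.45 ± 0.14, adjusted p = 0.045), so the list held 2 lower calls. The call of NTT was lost without any 1 of wild-type replicates 2, 3 and 4 or of the arf6arf8 replicates. In the medial domain list of 10 genes, BP (KNAT1), a class 1 KNOX factor of the replum, fell with 17.8 and 17.3 CPM, against 21.8 to 25.3 CPM (-0.46 ± 0.11, adjusted p = 0.00941), and the boundary gene CUC1 rose with 7.55 and 8.07 CPM, against 2.69 to 4.46 CPM (1.15 ± 0.33, adjusted p = 0.0298). Both calls were lost without either arf6arf8 replicate, and that of CUC1 also without wild-type replicate 1, 2 or 4.

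None of the 9 ovule and integument regulators was called. STK, the ovule identity MADS factor, had 168 and 208 CPM in arf6arf8, against 129 to 138 CPM in wild type (0.51 ± 0.46, adjusted p = 0.543). Its SE rests on all 5 gynoecium genotypes. Of these, axr3 and arf6axr3 carry STK promoter sequence in a transgene, and whether this bears on the SE was not tested. With only the groups compared, STK was called higher (0.51, adjusted p = 0.00707). Only 2 of 10 female gametophyte genes passed the filter on low counts, and neither was called. Of 4 proanthocyanidin genes tested, which act in the inner ovule coat, TT12 was the 1 called.

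Floral homeotic MADS genes gave 4 higher and 1 lower call among 8 tested. SEP4 fell, with 5.59 and 5.51 CPM in arf6arf8, against 14.9 to 26.6 CPM in wild type (-1.89 ± 0.24, adjusted p = 5.54e-05). AP3, which with PI specifies petals and stamens, had 20.3 and 21.6 CPM in arf6arf8, against 6.85 to 11.7 CPM in wild type (1.22 ± 0.20, adjusted p = 0.000621). PI had 9.16 and 8.74 CPM in arf6arf8, against 1.59 to 4.81 CPM in wild type (1.6 ± 0.45, adjusted p = 0.0275). The carpel and stamen gene AG and its partner SEP3 rose by 0.36 and 0.37 on the log2 scale. The levels of AP3 and PI in the 27-library scaling summed to 1184 to 1473 CPM in stamens. The summed pollen markers, mostly GRP17 and none called in the main model, also stood higher, at 124 and 234 CPM in arf6arf8 gynoecia. In wild type they stood at 15.1 to 66.8 CPM, and their part in this result was not tested. The 4 higher calls were 2 without wild-type replicate 3 and 1, AP3, without either arf6arf8 replicate. The call of AG was also lost without wild-type replicate 1 or 2, and that of PI without wild-type replicate 4.

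**Figure D3:**
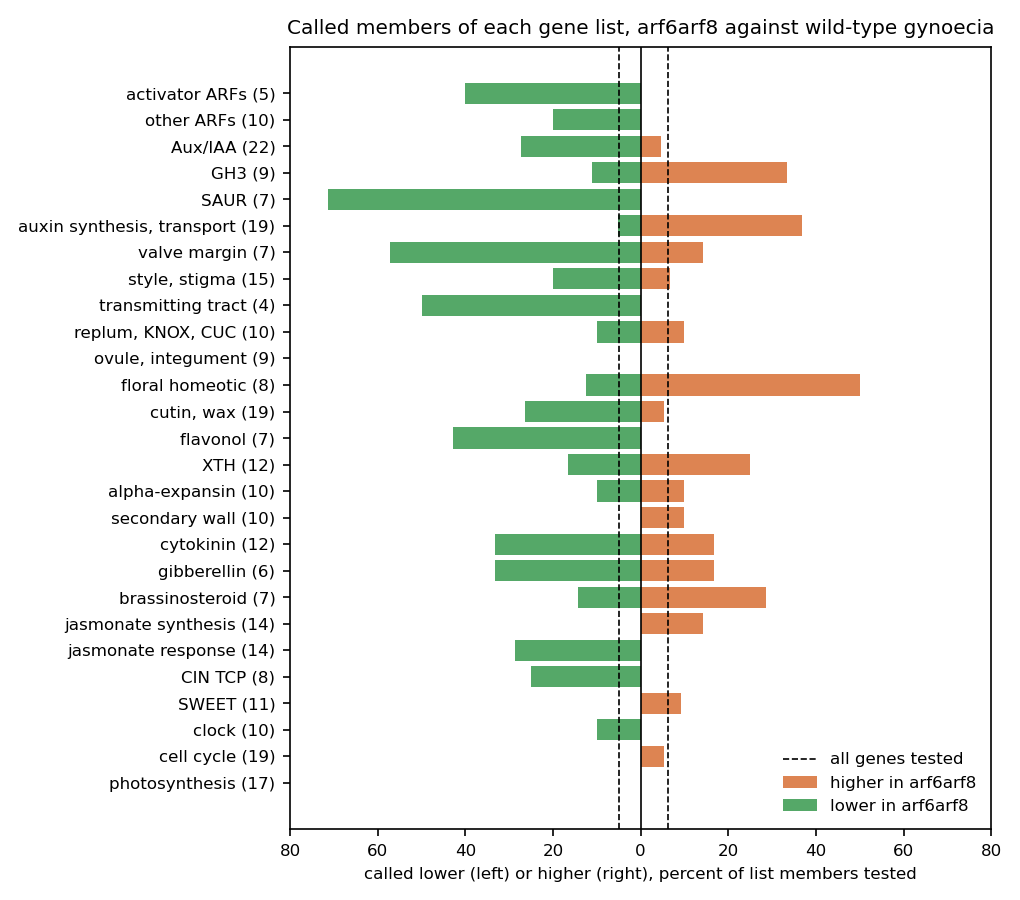
Share of the tested members of each list (their number in brackets) called lower (left) or higher (right) in arf6arf8 than in wild type, with dashed lines at the shares of all genes tested, 4.97% and 6.18%. Among the lists drawn, SAUR and valve margin genes (FUL included) have the longest bars to the left and floral homeotic genes the longest to the right, from lists of 7 or 8 tested members.

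Of 19 cutin and wax genes tested, 5 fell and 1 rose, and 4 of the 5 lower calls were of wax enzymes or their elongase, MAH1, CER3, CER4 and KCS6, which were tested and called under all 15 alternatives. MAH1 (CYP96A15), the midchain alkane hydroxylase that makes secondary alcohols and ketones, had 20.8 and 22.7 CPM in arf6arf8, against 402, 174, 118 and 141 CPM in wild type, and fell 9.62-fold (-3.27 ± 0.40, adjusted p = 4.42e-05). CER3, of alkane synthesis, had 255 and 176 CPM in arf6arf8, against 532 to 803 CPM in wild type (-1.57 ± 0.16, adjusted p = 4.49e-06). CER4, the reductase that makes primary alcohols, had 53.8 and 47.2 CPM in arf6arf8, against 93.4 to 150 CPM in wild type (-1.12 ± 0.17, adjusted p = 0.000269). KCS6, the elongase of very long acyl chains, had 204 and 184 CPM in arf6arf8, against 306 to 454 CPM in wild type (-0.88 ± 0.14, adjusted p = 0.000544). CER1, the partner of CER3, had 896 and 755 CPM in arf6arf8, against 579 to 797 CPM in wild type, and was not called (adjusted p = 0.119). Without wild-type replicate 1, CER1 was called higher (0.42, adjusted p = 0.0254). The cutin hydroxylase gene CYP77A6 fell by 0.65 on the log2 scale, a call lost without either arf6arf8 replicate. MYB16, a regulator of cuticle and petal cell shape, rose, with 37.2 and 38.2 CPM in arf6arf8, against 20.9 to 25.8 CPM in wild type (0.70 ± 0.13, adjusted p = 0.00226).

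Flavonol genes gave 3 lower calls among 7. The regulators MYB12 and MYB11 had 15.2 and 14.8 CPM and 8.67 and 6.79 CPM in arf6arf8, against 28.0 to 41.7 CPM and 11.4 to 21.1 CPM in wild type (adjusted p = 0.00161 and 0.00729). Chalcone isomerase (CHI, TT5) had 128 and 121 CPM in arf6arf8, against 164 to 236 CPM in wild type (-0.65 ± 0.15, adjusted p = 0.00779). Chalcone synthase (TT4) and flavonol synthase FLS1 were not called. Without arf6arf8 replicate 2 the 3 calls were 1, that of MYB12, and the call of chalcone isomerase was also lost without replicate 1.

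Wall-modifying genes moved in both directions. Of 12 XTH genes of the list tested, which cut and rejoin xyloglucan, 3 rose and 2 fell. Counted by symbol over all genes, 16 XTH genes were tested, with 4 higher and 2 lower. XTH33 had 3.63 and 4.24 CPM in arf6arf8, against 0.159 to 0.663 CPM in wild type (3.38 ± 0.49, adjusted p = 0.000195). XTH4 had 288 and 287 CPM in arf6arf8, against 145 to 179 CPM in wild type (0.86 ± 0.14, adjusted p = 0.000418). XTH24 had 8.81 and 5.92 CPM in arf6arf8, against 0.638 to 1.31 CPM in wild type (2.82 ± 0.58, adjusted p = 0.00387, lost without arf6arf8 replicate 1). XTH19 and XTH28 fell by 2.76 and 0.37 on the log2 scale, with 0 lower calls left without either arf6arf8 replicate, and XTH19 was also lost without wild-type replicate 1 or 4. Of 10 alpha-expansin genes tested, EXPA3 fell, with 13.4 and 16.2 CPM in arf6arf8, against 26.7 to 36.5 CPM in wild type (-1.06 ± 0.19, adjusted p = 0.00141). EXPA14 rose by 1.15, a call lost without either arf6arf8 replicate. Among 10 secondary wall genes tested, the regulator NST1 was called, with 2.52 and 1.21 CPM in arf6arf8, against 0.547 to 0.638 CPM in wild type, and this call was lost without arf6arf8 replicate 1.

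Cytokinin feedback genes were called in both directions, with 4 of 12 tested lower and 2 higher. The 4 that fell were type A response regulators, which cytokinin induces and which dampen its signal. ARR5 (AT3G48100) had 0.489 and 0.471 CPM in arf6arf8, against 6.27, 4.72, 5.10 and 6.45 CPM in wild type, and fell 11.4-fold (-3.52 ± 0.53, adjusted p = 0.000287). ARR7 had 6.78 and 5.65 CPM in arf6arf8, against 13.1 to 19.7 CPM in wild type (-1.37 ± 0.24, adjusted p = 0.00123). ARR4 and ARR9 fell by 1.18 and 0.77. The 2 that rose were the cytokinin oxidase genes CKX5 and CKX1, which break the hormone down: CKX5 had 12.0 and 14.7 CPM in arf6arf8, against 3.51 to 6.79 CPM in wild type (1.19 ± 0.27, adjusted p = 0.00685). CKX1 had 11.7 and 12.1 CPM in arf6arf8, against 6.13 to 6.70 CPM in wild type (0.91 ± 0.22, adjusted p = 0.0125). The calls of ARR5 and ARR7 were kept without any 1 library. Without either arf6arf8 replicate the lower calls were 2, with those of ARR4 and ARR9 lost, and the higher calls were 1 without replicate 1 and 0 without replicate 2. The call of ARR9 was also lost without wild-type replicate 2, 3 or 4.

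Of 6 gibberellin enzymes tested, 2 that inactivate the hormone fell and 1 that makes it rose. GA2OX1 had 0.140 and 0.403 CPM in arf6arf8, against 2.69, 2.15, 11.0 and 9.95 CPM in wild type (-4.45 ± 0.97, adjusted p = 0.0055). GA2OX8 had 0.559 and 0.403 CPM in arf6arf8, against 0.797 to 2.73 CPM in wild type (-1.92 ± 0.51, adjusted p = 0.0199). GA20OX2, of the last steps of synthesis, had 7.13 and 9.55 CPM in arf6arf8, against 1.59 to 2.65 CPM in wild type (1.96 ± 0.33, adjusted p = 0.000726). Both lower calls were lost without either arf6arf8 replicate, and that of GA2OX8 also without wild-type replicate 4.

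Of 7 brassinosteroid genes, 2 rose and 1 fell, and no call was lost where the gene was tested, though BR6OX1 did not pass the strict CPM filter. BR6OX1 and BR6OX2, oxidases of the last steps of synthesis, stood at 4.26 and 5.85 CPM and at 25.5 and 30.3 CPM in arf6arf8, against 0.478 to 1.33 CPM and 12.3 to 16.3 CPM in wild type (2.46 ± 0.47 and 0.94 ± 0.14). ROT3, an earlier hydroxylase, had 9.29 and 13.9 CPM in arf6arf8, against 21.8 to 34.0 CPM in wild type (-1.22 ± 0.17, adjusted p = 0.000138).

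**Figure D4:**
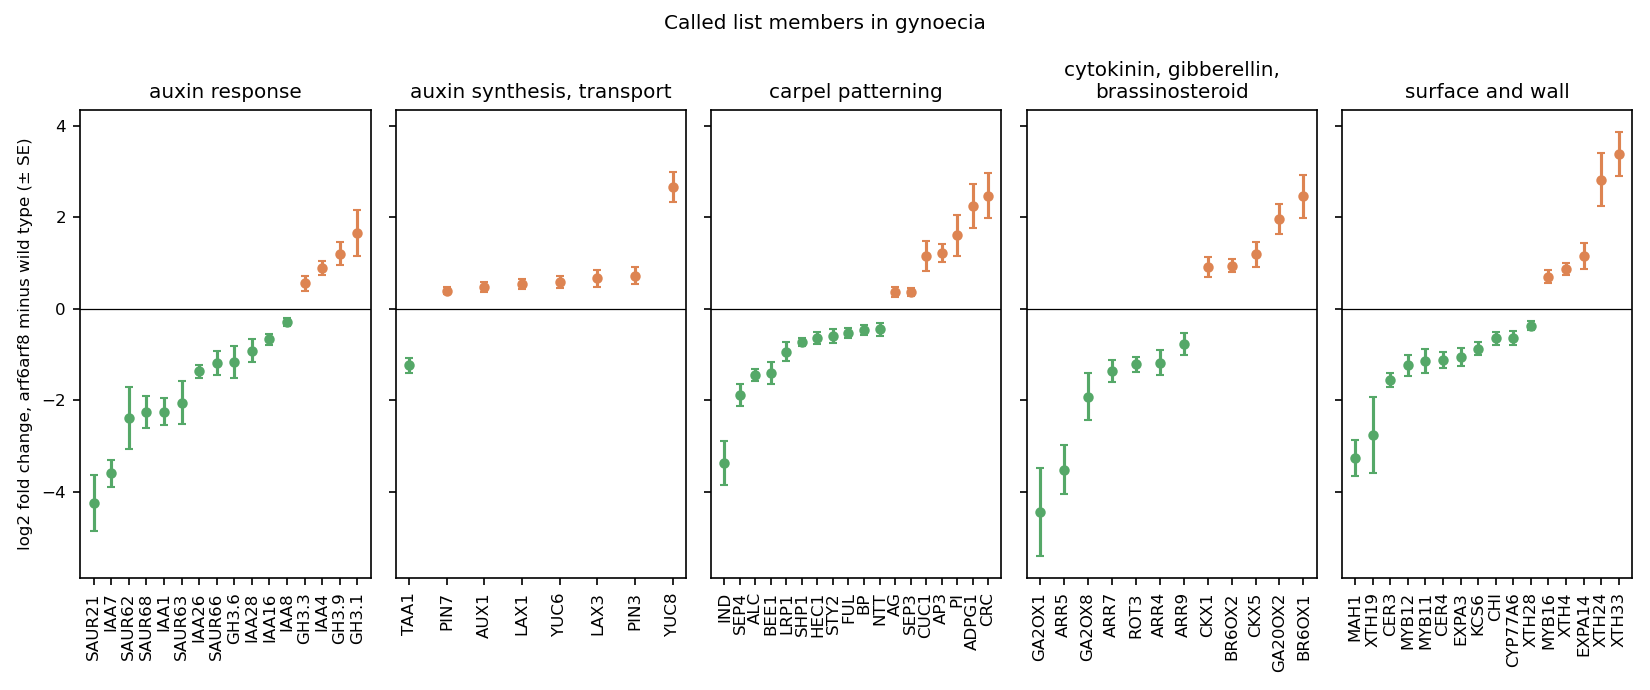
Log2 fold changes, arf6arf8 minus wild type, of the called members of the auxin, carpel, hormone, surface and wall lists, with bars of 1 SE from the fit of 18 gynoecium libraries. Green points are lower and orange points higher in arf6arf8; SAUR21, GA2OX1, IAA7 and ARR5 lie lowest and XTH33 highest.

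Of 14 jasmonate synthesis genes 2 rose: the cyclase gene AOC3 had 20.0 and 18 CPM in arf6arf8, against 2.71 to 6.27 CPM in wild type (1.98 ± 0.42, adjusted p = 0.0044). The thiolase gene KAT2 (PKT3) rose by 0.23 on the log2 scale, a call lost without wild-type replicate 2 or 4 or either arf6arf8 replicate. Of 14 response genes tested, 4 fell and none was called higher. VSP1, the vegetative storage protein that jasmonate induces, had 3060 and 2173 CPM in arf6arf8, against 3888 to 5641 CPM in wild type (-0.92 ± 0.26, adjusted p = 0.0252). The repressor genes JAZ6 and JAZ10 and the storage protein gene VSP2 fell by 0.91, 0.80 and 1.53. The 4 calls were 2 without wild-type replicate 4 and 0 without either arf6arf8 replicate, and that of VSP2 was also lost without wild-type replicate 3. MYC2, the factor JAZ proteins repress, had 230 and 201 CPM in arf6arf8, against 56.3 to 128 CPM in wild type, and was not called (1.36 ± 0.53, adjusted p = 0.109). It was called with only the groups compared (adjusted p = 0.0101) and with the library number as a covariate (adjusted p = 0.033), where the response list held 2 and 1 higher calls. MYB21, MYB24 and MYB57, jasmonate-induced factors of petals and stamens, had 3, 0 and 1 counts in all in arf6arf8 and 2, 0 and 1 in wild type, and were not tested.

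Among 6 floral volatile genes tested, 2 fell. CYP76C1, a linalool oxidase of flowers, had 2 counts in arf6arf8, against 1.99 to 3.67 CPM in wild type, a ratio of 42.0 with a 95% counting interval of 11.3 to 351. The terpene-cyclase-family gene AT5G44630 fell by 0.57 on the log2 scale, a call lost without any 1 of the 6 libraries. Of 8 CIN class TCP genes, factors that limit organ growth, TCP13 (PTF1) and TCP17 fell by 0.96 and 1.64, and the 2 calls were 0 without arf6arf8 replicate 1 and 1 without replicate 2. CYP83A1, of glucosinolate synthesis from methionine, had 1.89 and 2.76 CPM in arf6arf8, against 0 to 0.109 CPM in wild type, and the regulator MYB28 rose by 0.77, a call lost without wild-type replicate 4 or arf6arf8 replicate 2. The sugar transporter gene SWEET1 was the list's 1 call and rose by 0.70, and this call was lost without arf6arf8 replicate 2. Counted by symbol over all genes, 12 SWEET genes were tested, with 2 higher.

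Lists of broad cell functions gave few calls. None of 17 nuclear photosynthesis genes and none of 5 heat shock genes tested was called, and their median log2 fold changes were 0.14 and 0.09, while with only the groups compared 2 photosynthesis genes were called higher. Of 19 cell cycle genes 1 was called, the mitotic cyclin CYCB1;2 (CYC1BAT), higher by 0.28, and of 10 clock genes 1, PRR7, lower by 0.83. The call of the cyclin was lost without wild-type replicate 4 or either arf6arf8 replicate, and that of PRR7 without either arf6arf8 replicate. None of 6 late pollen genes tested was called, though their median was 1.79: the pollen coat gene GRP17 had 104 and 166 CPM in arf6arf8, against 11.6 to 50.1 CPM in wild type (2.07 ± 0.88, adjusted p = 0.145). VGD1, a pollen pectin methylesterase, had 15.5 and 50.9 CPM in arf6arf8, against 1.86 to 12.6 CPM in wild type. GRP17 was called higher with low-numbered libraries only (adjusted p = 0.00778) and with only the groups compared (adjusted p = 0.00974), and VGD1 with the library number as a covariate (adjusted p = 0.043) and with only the groups compared (adjusted p = 0.0359). LAP6, of the pollen wall, was the 1 tapetum gene called, lower by 0.48, and this call was lost without either arf6arf8 replicate.

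Whether these changes differ from those in stamens was tested as an interaction in a fit of all 27 libraries. The gynoecia came from stage 12 flowers and the stamens from stage 11 buds, so organ and flower stage cannot be told apart in this comparison. Of 20665 genes, 1374 (6.65%) had a log2 fold change that differed between gynoecia and stamens, 782 of them (3.78%) higher in gynoecia and 592 (2.86%) lower. Without arf6arf8 gynoecium replicate 1 or 2 there were 666 or 696 calls, and without arf6arf8 stamen replicate 1 or 2 there were 608 or 762. On data simulated with 200 changed genes and base levels pooled over all libraries, this test recovered 34.4% of 2-fold and 71.1% of 4-fold differences. The shares hold for that setting only, and a difference not called is not shown to be absent. Fold changes below come from the fit of 27 libraries, so the 2 tissues share a scaling. The reductions of ARF6 and ARF8 were of like size: ARF6 changed by -1.89 ± 0.12 in gynoecia and -1.98 ± 0.13 in stamens (adjusted p of the difference = 0.816). MIR167a rose by 5.6 ± 0.43 in gynoecia and 2.03 ± 0.43 in stamens, and the difference was called (adjusted p = 0.00153).

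Auxin and cytokinin response genes differed in part. IAA1 changed by -2.25 ± 0.45 in gynoecia and 1.37 ± 0.50 in stamens, where it was not called itself (adjusted p of the difference = 0.00129). IAA26 changed by -1.37 ± 0.14 in gynoecia and 0.35 ± 0.14 in stamens (adjusted p = 5.3e-06). IAA7 fell in both, by 3.6 in gynoecia and 2.38 in stamens, with no called difference (adjusted p = 0.259). ARR5 fell by 3.51 in gynoecia and changed by -0.06 ± 0.37 in stamens (adjusted p of the difference = 0.00124).

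The jasmonate response genes JAZ6, JAZ10 and VSP1 were reduced more in stamens. JAZ6 fell by 0.92 in gynoecia and by 3.56 in stamens (adjusted p of the difference = 4.09e-05), and JAZ10 by 0.81 and 3.57 (adjusted p = 0.000563). VSP1 fell by 0.93 in gynoecia and by 4.24 in stamens (adjusted p = 0.00011). The influx carrier gene LAX3 changed by 0.66 ± 0.23 in gynoecia and fell by 2.73 in stamens (adjusted p of the difference = 3.64e-05). The wax genes CER3 and KCS6 changed by -1.57 ± 0.16 and -0.88 ± 0.19 in gynoecia and -0.28 ± 0.16 and 0.52 ± 0.19 in stamens (adjusted p of the differences = 0.000722 and 0.00225).

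Of the 5 genes with the lowest difference, AT3G26140 fell by 8.43 in gynoecia and rose by 1.06 ± 0.36 in stamens (adjusted p of the difference = 2.89e-10), where it had 12.0 and 14.2 CPM in arf6arf8, against 4.62 to 7.19 CPM in wild type. AT4G35160 had 5.36 and 7.86 CPM in arf6arf8 stamens, against 2.49 to 5.54 CPM in wild-type stamens, and AT3G22240 had 5.56 and 6.06 CPM, against 0.355 to 1.98 CPM. AT4G33600 and TT12 reached 0.129 CPM at most in the arf6arf8 and wild-type stamen libraries. Of the 5 highest, MIF2 (AT3G28917), a mini zinc finger gene, had 0 counts in both arf6arf8 stamen libraries, against 22.8 to 41.9 CPM in wild-type stamens, and UGT85A3 had 0 counts, against 12.4 to 27.3 CPM. Both had at most 0.807 CPM in the gynoecia. KCS17, an elongase subunit, had 0.412 and 0.258 CPM in arf6arf8 stamens, against 93.1 to 105 CPM in wild-type stamens, while in gynoecia it had 6.08 and 4.84 CPM in arf6arf8 and 4.92 to 6.71 CPM in wild type. AT3G17580 and the acyltransferase-family gene AT5G23970 likewise had 0 counts in arf6arf8 stamens and no call in gynoecia. The differences of AT4G33600, TT12 and AT5G23970 were lost under some alternatives: that of AT4G33600 in 11 of 20 alternatives, with an adjusted p of 1.00 without arf6arf8 stamen replicate 2, that of TT12 without either arf6arf8 stamen replicate (adjusted p = 0.0641 and 0.0661), and that of AT5G23970 in 14 of 20, with an adjusted p of up to 0.195.

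**Figure D5:**
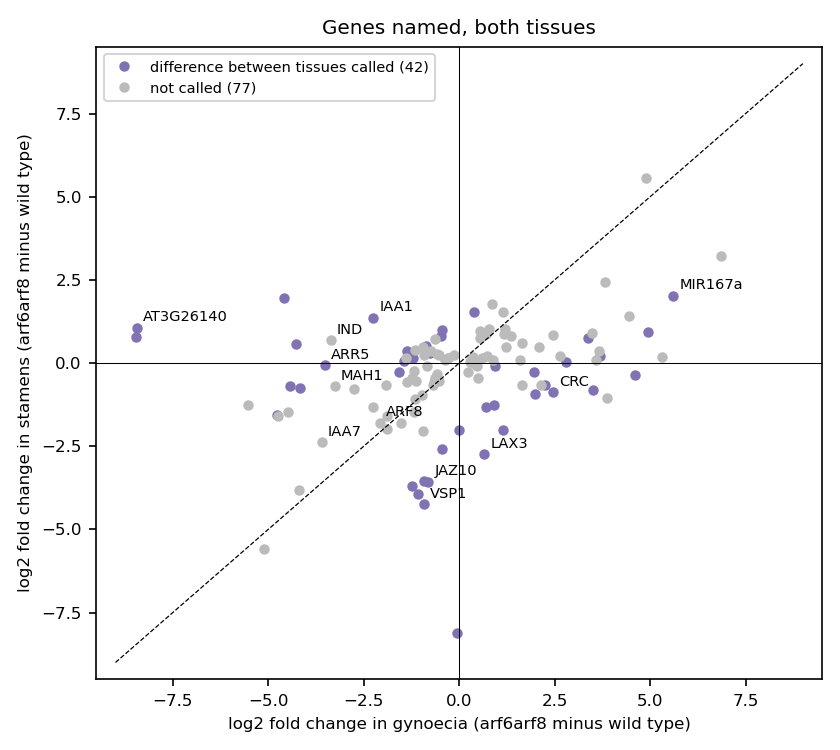
Log2 fold change, arf6arf8 minus wild type, in stamens against that in gynoecia for 119 of the genes named, from the fit of 27 libraries, leaving out genes with no count in one of the 4 groups. Purple points have a called difference between the tissues and grey points do not, and the dashed line marks equal change. VSP1 and JAZ10 lie low on the stamen axis, and AT3G26140, IAA1 and ARR5 lie left on the gynoecium axis.

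The mARF8 gynoecia had ARF8 at 788 to 1217 CPM from the added miR167-resistant copy, with ARF6 at 333 to 440 CPM. That comparison shares the wild-type libraries with the one above, and it called 128 of 18616 genes (0.688%), so values are set side by side without an overlap. Without wild-type replicate 2 or 4 there were 68 or 52 calls, and without mARF8 replicate 2 or 3 there were 67 or 38. IAA7 changed by -3.6 in arf6arf8 and by 1.04 in mARF8 (adjusted p in mARF8 = 0.0119). IAA26 changed by -1.37 in arf6arf8 and by 0.49 in mARF8 (adjusted p = 0.0483). ARR4 changed by -1.18 in arf6arf8 and 1.13 in mARF8 (adjusted p = 0.0147). ARR9 changed by -0.77 in arf6arf8 and 0.90 in mARF8 (adjusted p = 0.0358), and TCP13 by -0.96 in arf6arf8 and 0.87 in mARF8 (adjusted p = 0.0166). PIN7 changed by 0.39 in arf6arf8 and by -0.32 in mARF8 (adjusted p = 0.0192). HEC1 was lower in both, by 0.64 in arf6arf8 and 0.61 in mARF8 (adjusted p = 0.0149). For IND, ALC, MAH1, CER3 and ARR5 the mARF8 comparison gave no call.

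In the axr3 gynoecia the genes nearly lost from arf6arf8 took several levels. AT3G26140 had 2.20 to 4.58 CPM in axr3 and 52.8 to 89.2 CPM in arf6axr3, beside its 0.280 and 0.471 CPM in arf6arf8. BETAG4 had 0 to 0.179 CPM in axr3 and 5.47 to 20.3 CPM in arf6axr3, and TT12 0 to 0.399 CPM and 4.18 to 5.74 CPM. MAH1 had 323 to 413 CPM in axr3 and 122 to 176 CPM in arf6axr3, where arf6arf8 had 20.8 and 22.7 CPM.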

How the data were processed

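RNA was made into TruSeq mRNA libraries and sequenced as single-end reads of 50 bases, per the labels. The deposited values are raw read counts for each of 33602 loci, and the submitters' processing notes name TAIR10, TopHat2, HTSeq and edgeR without versions. The strand setting of the counting is not given in the sources used here. Counts were analysed with edgeR 4.0.16 in R 4.3.3: genes were kept by filterByExpr (minimum count 10, minimum total 15), scaled by TMM and tested by the quasi-likelihood F test, with 18 gynoecium libraries in the main model and 27 libraries for the comparison of tissues. SE is the size of the log2 fold change divided by the root of F. The fit was tested on simulated data of 18285 genes. Each simulation changed 200 genes and drew base levels pooled over all libraries of its fit, so the shares recovered hold for that setting. The alternatives were other scalings and filters, DESeq2 1.42.0, a replicate block, low-numbered libraries only (those with a number up to 23 in their titles), the library number as a covariate, the compared groups only, and leaving out each library. Named genes were the 15 lowest and 15 highest called genes whose groups did not overlap and whose mean log2 CPM reached 1, called list members, the 5 lowest and 5 highest tissue differences, and a few named for contrast. The comparison and the lists were chosen with earlier results of these data known. Ratios for genes with 1 to 3 counts carry 95% counting intervals, which cover counting error only. Gene names, positions and sequences come from RefSeq TAIR10.1, whose loci matched 32835 of the 33602.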

Additional observations from a re-analysis of the deposited data

Results flagged for a closer look

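In 11 of 136 genes looked at, 1 wild-type gynoecium library stood apart from the other 3 by a gap, relative to the range of all 4, above Dixon's 95% critical value, which chance gives in about 1 in 20 groups. Wild-type replicate 1 held ARF8 at 406 CPM, YUC8 at 2.19 CPM, CER4 at 150 CPM and LAP6 at 18.4 CPM. Replicate 2 held PIN7 at 151 CPM and KAT2 (PKT3) at 209 CPM. Replicate 3 held CKX5 at 3.51 CPM. Replicate 4 held AT4G08093 at 0.328 CPM, AT3G05730 at 0.984 CPM, CYCB1;2 (CYC1BAT) at 123 CPM and STK at 138 CPM. 

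The log2 fold change of arf6arf8 against wild type differed between the tissues by the interaction test of edgeR for the genes below, given as gynoecia minus stamens on the log2 scale. It was higher in gynoecia for MIF2 (12.55), UGT85A3 (11.31), AT3G17580 (8.13), KCS17 (8.04), AT5G23970 (7.58), CYP83A1 (4.94) and PYD4 (4.32). Then followed AT3G55920 (4.00), MIR167a (3.57), AT3G17070 (3.5), LAX3 (3.39), CRC (3.32), VSP1 (3.31) and EXPA14 (3.16). Then followed ADPG1 (2.91), AOC3 (2.89), EXPA3 (EXP3) (2.86), XTH24 (2.77), JAZ10 (2.76), JAZ6 (2.64) and XTH33 (2.61). Then followed MYB12 (2.46), GA20OX2 (2.23), CKX1 (2.18), NTT (2.13), MYB16 (2.03), SHP2 (2.00) and BR6OX2 (1.01). It was lower in gynoecia for AT4G33600 (-10.11), AT3G26140 (-9.5), TT12 (-9.48), AT4G35160 (-9.25), AT3G22240 (-6.54), AT2G47560 (-4.84) and GA2OX1 (-3.74). Then followed IAA1 (-3.62), ARR5 (-3.45), AT4G13210 (-3.41), KCS16 (-3.19), IAA26 (-1.72), ALC (-1.51) and BP (KNAT1) (-1.44). Then followed KCS6 (-1.40), ROT3 (-1.36), LAP6 (-1.31), CER3 (-1.29), PIN7 (-1.14) and ARR9 (-1.06). For MIF2, UGT85A3, AT3G17580 and AT5G23970 the arf6arf8 stamens had 0 counts, so the sizes depend on the prior count and are no bounds, and AT4G33600 and TT12 had near 0 counts in stamens. Of the 10 genes with the lowest and highest differences, AT4G33600, TT12 and AT5G23970 lost the call under 11, 3 and 14 of 20 alternatives, and the other 38 differences were not recomputed.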

How the results depend on the processing

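The count of calls between arf6arf8 and wild-type gynoecia (2077, with 1151 higher and 926 lower) was 1315 (726 higher, 589 lower) with low-numbered libraries only and ranged over 753 to 2285 (426 to 1285 higher, 322 to 1000 lower) when 1 library was left out. The other alternatives gave 1822 to 2481 calls, among them 2297 by DESeq2. The tissue difference (1374) was 542 with low-numbered libraries only, 2681 with only the groups compared and 608 to 1374 without 1 library. The mARF8 comparison (128) was 335 by DESeq2, 257 with the replicate block, 3 with low-numbered libraries only, 246 with the library number as a covariate and 38 to 173 without 1 library. The replicate block gave 2027 calls for arf6arf8, but deviations of same-numbered libraries correlated at -0.07 and 0.16 in the 2 pairs, so the numbers do not pair the samples. SHP2, not called, changed sign, at -0.0137 with upper-quartile factors, -0.0023 with no filter, -0.0588 with the replicate block, -0.0600 with low-numbered libraries only and -0.0123 with the library number as a covariate, and ranged from -0.056 to 0.0553 without 1 library. Of 120 called genes named, 106 passed the filter under all 15 alternatives, and 51 of these kept their call in each. A further 6 were filtered out under 1 alternative and lost no call elsewhere, and 63 lost theirs at least once, the cause of which was not tested. Counts on lists also moved: SAUR lower calls were 2 under the strict CPM filter, XTH higher calls 5 with only the groups compared, alpha-expansin lower calls 4 with the replicate block, flavonol lower calls 5 and jasmonate response lower calls 1 with low-numbered libraries only. With 2 arf6arf8 libraries, calls of under 2-fold rest on few samples: on simulated data, 74.5% of 2-fold and 98% of 4-fold changes were recovered. For the tissue difference the shares recovered were 34.4% and 71.1%.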

Other observations

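Gene families outside the lists, chosen after their values were seen and so given without a test, also held several calls in arf6arf8 gynoecia. Over all genes tested, 6.18% were called higher and 4.97% lower. Other families not described here had called shares as large, among them IDD (55.6%), MES (50%) and SULTR (50%). Of 24 arabinogalactan protein genes tested, which encode glycoproteins of the cell surface, 6 were called higher and 1 lower, with a median log2 fold change of 0.60. Early nodulin-like genes, a related group of surface proteins, had 5 of 13 called higher and none lower. Of 8 phi-class glutathione transferase genes, the family of GSTF6, 4 were called higher and none lower. Of 14 SPL genes, transcription factors of which many are targets of miR156, 5 were called lower (SPL8, SPL9, SPL11, SPL12 and SPL13A) and 1 higher (SPL4).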
